A study of Mus musculus with 16 samples.

Results

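Chromatin accessibility was examined at 9 genes that encode subunits of the NCoR, SIN3 and CoREST corepressor complexes and their histone deacetylases: *Ncor1*, *Tbl1x*, *Tbl1xr1*, *Gps2*, *Hdac3*, *Sin3a*, *Hdac1*, *Hdac2* and *Rcor1*. The genes were found by symbol in the GENCODE annotation of GRCm38 (mm10), and peaks were taken in a window around each of their transcription start sites that reached 1000 bp upstream and 100 bp downstream (promoter regions) or elsewhere in the gene body or within 10 kb of it (other regions). This gave 20 of the 16566 combined regions, namely 10 promoter regions, of 10326 in all, and 10 other regions.

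Splenic B cells of C57BL/6 mice were profiled by ATAC-seq, which uses a transposase to tag open chromatin. There were 4 libraries from Brg1fl/+ CD23Cre +/- mice, in which 1 floxed allele of *Smarca4* (the gene encoding the chromatin remodeler Brg1) can be deleted, and 4 from Brg1fl/fl CD23Cre +/- mice, in which both can. All mice carried the Cre, which the CD23 promoter drives in mature B cells, so the comparison was between the loss of 1 allele and of 2, and no library without a floxed allele was analysed here. The cells had been isolated with magnetic CD43 beads and activated *in vitro* with LPS at 10 µg/mL and with IL-4 (20 ng/mL). The activation lasted 72 hours by the sample labels and 96 hours by the series design. The input was 50000 cells per library. The mice were aged 7 to 14 weeks, a range that covers all animal experiments and is not split by genotype. The number of mice behind the 4 libraries of a genotype is not given in the sources used here, so p-values measure the spread between libraries, which may be technical.

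Corepressor complexes are brought to DNA by transcription factors and remove acetyl groups from histone tails, which is associated with lower transcription. The NCoR complex holds HDAC3 together with TBL1X, TBL1XR1 and GPS2. SIN3A is the scaffold of a separate complex around HDAC1 and HDAC2, and RCOR1 (CoREST) links the same pair of deacetylases to the histone demethylase KDM1A. NCoR is a known partner of BCL6, the repressor that defines germinal center B cells.

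The 8 lists held 6271 to 14614 peaks, and the longest was that of Brg1fl/+ replicate 1. The lists give no read counts. From the fold over local background and the p deposited with each peak, the whole number of fragments at its summit was recovered. Heights were then divided by a size factor per library, taken over promoter regions with a peak in all 8 lists (scaled height, in fragments of an average library). The size factors ran from 0.564 (Brg1fl/fl replicate 2) to 1.94 (Brg1fl/+ replicate 1), so the absence of a peak means that none was detectable at that depth. The size factor over the genome background was 1.08 to 1.55 in Brg1fl/+ and 0.721 to 0.797 in Brg1fl/fl, and the shortest peak was 195 to 204 bp in Brg1fl/+ and 231 to 243 bp in Brg1fl/fl. Both therefore differed with genotype and cannot be told apart from it. Peak pileups of libraries of 1 genotype agreed to within about sampling noise (dispersion of 0.760 to 1.20 between Brg1fl/+ and 0.798 to 0.863 between Brg1fl/fl libraries, where 1 is sampling noise alone). The size factor over background still differed within Brg1fl/+, at 1.49 and 1.55 in replicates 1 and 2 and 1.08 and 1.22 in replicates 3 and 4. Each library was counted as 1. Averaging these same pairs, replicates 1 and 2 and replicates 3 and 4, called none of the regions of the 9 genes either. Of 8 B cell markers, *Ms4a1* and *Pax5* had a promoter peak in all 8 lists, *Ebf1* in 3 of each genotype and *Cd79a* in 1 Brg1fl/+ list, whereas 4 had none in any list, *Cd79b*, *Cd22* and *Blk* among them. None of the 5 T cell, 5 myeloid and 2 NK cell markers had a promoter peak. The lists do not measure Brg1 itself.

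The promoter sequences that the results turn on are shown for *Ncor1* (the least often detected main promoter), *Tbl1x* (the other main promoter missing from a list), *Gps2* (the largest height difference) and *Sin3a* (the highest promoter). Each runs 5′ to 3′ on the strand of the gene, from 250 bases before to 50 bases after a RefSeq start of GRCm38.p6, 300 bases in all. They lie at chr11:62457283-62457582 (minus strand), chrX:77510977-77511276, chr11:69913770-69914069 and chr9:57076126-57076425 (plus strand). The RefSeq table held 7 of the 9 genes. Capitals mark the letters of 10 motifs searched on both strands, of which GGGCGG (Sp/KLF), CCGGAAG (ETS), CCAAT (NF-Y) and ATGGCGG (YY1) occurred.
Ncor1: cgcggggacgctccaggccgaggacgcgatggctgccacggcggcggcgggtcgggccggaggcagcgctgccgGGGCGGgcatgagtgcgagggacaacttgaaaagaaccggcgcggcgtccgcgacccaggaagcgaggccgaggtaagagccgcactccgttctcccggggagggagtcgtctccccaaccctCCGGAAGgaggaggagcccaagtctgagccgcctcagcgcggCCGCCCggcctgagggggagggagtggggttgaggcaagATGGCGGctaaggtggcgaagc
Tbl1x: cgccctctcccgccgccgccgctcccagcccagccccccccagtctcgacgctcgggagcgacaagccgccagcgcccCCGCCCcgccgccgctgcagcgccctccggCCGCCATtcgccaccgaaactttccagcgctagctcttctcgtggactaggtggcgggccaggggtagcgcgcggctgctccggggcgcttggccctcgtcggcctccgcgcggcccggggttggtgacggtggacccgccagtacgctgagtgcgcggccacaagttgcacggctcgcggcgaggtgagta
Gps2: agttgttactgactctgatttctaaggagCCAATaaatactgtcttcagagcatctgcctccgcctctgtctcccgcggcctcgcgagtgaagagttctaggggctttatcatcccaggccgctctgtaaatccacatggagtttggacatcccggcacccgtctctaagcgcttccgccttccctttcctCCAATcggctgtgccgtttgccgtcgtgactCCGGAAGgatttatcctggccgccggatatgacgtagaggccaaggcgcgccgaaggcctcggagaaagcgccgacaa
Sin3a: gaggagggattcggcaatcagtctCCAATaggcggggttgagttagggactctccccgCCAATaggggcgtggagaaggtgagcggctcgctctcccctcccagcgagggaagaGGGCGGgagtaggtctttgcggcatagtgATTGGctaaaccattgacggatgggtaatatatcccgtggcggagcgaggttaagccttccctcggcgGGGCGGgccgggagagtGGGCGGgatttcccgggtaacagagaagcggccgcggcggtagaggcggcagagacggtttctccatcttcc

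The *Ncor1* sequence held GGGCGG 2 times and CCGGAAG and ATGGCGG 1 time each, with the median summit at base 154. The *Tbl1x* sequence held GGGCGG and ATGGCGG 1 time each, and the median summit of its peaks lay upstream of these bases. *Gps2* held CCAAT 2 times and CCGGAAG 1 time, with the median summit at base 279, and *Sin3a* held GGGCGG and CCAAT 3 times each, with the median summit at base 96. Over the 32851 promoters of the same table, GGGCGG was present in 35.7%, CCGGAAG in 8.86%, CCAAT in 37.4% and ATGGCGG in 4.05%. *Gps2* was the least GC-rich of these 4 sequences (56.7%) and *Tbl1x* the richest (75.3%).

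Each of the 9 genes had an accessible promoter in at least 1 library of both genotypes. In these bulk libraries a lower peak in every cell and a peak in fewer cells cannot be told apart. Of the 10 promoter regions, 7 had a peak in all 8 lists (*Tbl1xr1*, *Gps2*, *Hdac3*, *Sin3a*, *Hdac1*, *Hdac2* and *Rcor1*), against 41.1% of all promoter regions. The other 3 had a peak in fewer Brg1fl/fl than Brg1fl/+ lists, as did 37.4% of all promoter regions, and none had a peak in more, as 11.3% did, so the share of 3 in 10 was near the background. Of the 69 annotated starts of the 9 genes, 30 had a combined region in their window. *Ncor1*, with 23 starts, had one at 3 of them.

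**Figure D1:**
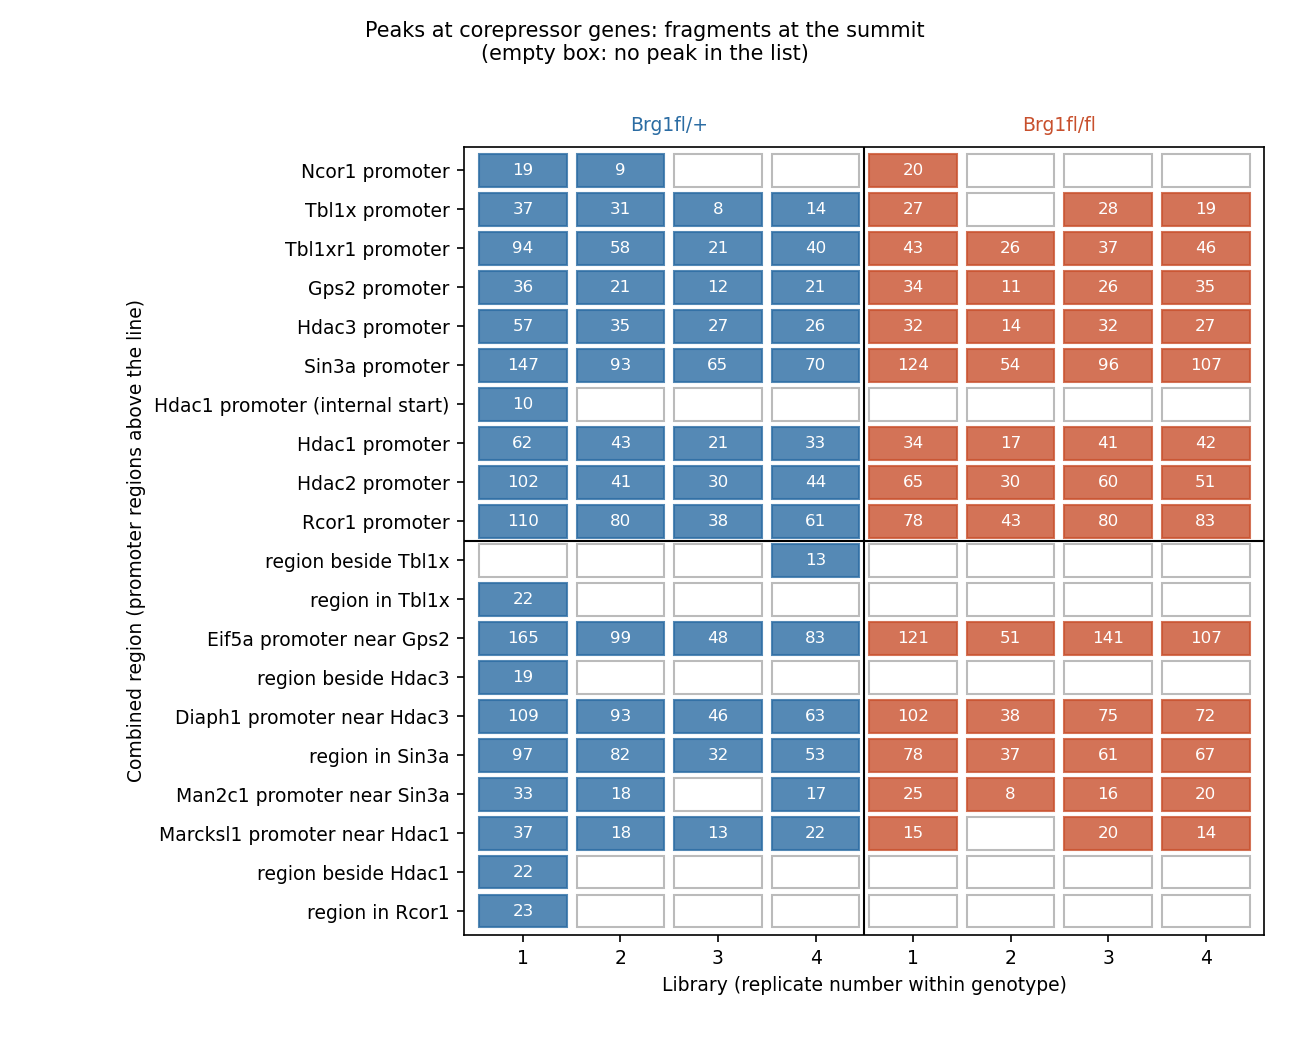
Fragments at the highest summit of each combined region at the 9 corepressor genes (rows, promoter regions above the line) in the 8 libraries (columns, blue Brg1fl/+ and orange Brg1fl/fl, by replicate number). Empty boxes are lists without a peak. 7 promoter regions are filled in every library, and 4 of the 5 regions below the line that were found in 1 library come from Brg1fl/+ replicate 1.

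Among the subunits of the NCoR complex, *Ncor1*, which encodes its scaffold, had the least often detected main promoter. The region at chr11:62457137-62457748 also overlaps the promoter window of *Pigl* on the opposite strand. It surrounds an internal start at position 62457332 rather than the annotated 5′ end of the gene at position 62458541, and its median summit lay in an intron. It had 19 fragments at the summit in Brg1fl/+ replicate 1, 9 in Brg1fl/+ replicate 2 and 20 in Brg1fl/fl replicate 1, and no peak in the other 5 libraries. These were the 2 Brg1fl/+ libraries and the Brg1fl/fl library with the largest size factors, and a peak of the same scaled height would have had 5.93 to 11.6 fragments in the 5 libraries without one, whose lists reach down to 5 to 8 fragments. Library by library these values were 6.16 against a lowest listed height of 5 in Brg1fl/+ replicate 3 and 9.40 against 6 in Brg1fl/+ replicate 4. In Brg1fl/fl replicates 2 to 4 they were 5.93 against 6, 11.4 against 8 and 11.6 against 8. The expected height was thus above the lowest listed one in 4 of the 5 libraries. It is, however, the geometric mean over only the libraries with a peak. In those lists the local background at *Ncor1* was 1.39 to 2.14 fragments, above their genome background of 0.806 to 1.67, so a lowest listed height is not the limit at this region. The comparison cannot decide what depth contributed, and the part of depth in the missing peaks was not tested. In rank by q, the peak stood at 64.4% and 95.9% of the 2 Brg1fl/+ lists and at 65.7% of the Brg1fl/fl list, where 100% is the weakest peak.

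*Tbl1x* and *Tbl1xr1* encode related WD40 proteins of the NCoR complex. *Tbl1x* lies on the X chromosome, and the sex of the mice behind each library was not considered here. The *Tbl1x* promoter (chrX:77510588-77511228) had 37, 31, 8 and 14 fragments in Brg1fl/+ replicates 1 to 4, or scaled heights of 19.1, 24.9, 13.6 and 15.7. It had 27, 28 and 19 fragments in Brg1fl/fl replicates 1, 3 and 4, or scaled heights of 22.2, 25.8 and 17.3, and no peak in Brg1fl/fl replicate 2. The genotypes overlapped. At the geometric mean of its scaled heights the promoter would have had 10.9 fragments in the missing library, the shallowest of the 8, whose list reaches down to 6. In the fit that allowed 1 missing library per genotype, the 7 heights differed by 0.27 ± 0.23 on the log2 scale (SE), a fold of 1.20 in Brg1fl/fl over Brg1fl/+ with a 95% interval of 0.869 to 1.67 (limma, adjusted p = 0.497).

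The *Tbl1xr1* promoter (chr3:22075998-22077272) was one of the widest, at 1275 bp and percentile 97.5 of promoter regions with a peak in all lists. Its scaled heights were 48.4, 46.5, 35.8 and 44.7 in Brg1fl/+ replicates 1 to 4 and 35.4, 46.1, 34.1 and 41.8 in Brg1fl/fl replicates 1 to 4. The lowest Brg1fl/+ library lay within the Brg1fl/fl range, and the means were 43.9 ± 5.57 and 39.3 ± 5.62 (SD, n = 4 each). The log2 difference was -0.16 ± 0.15 (SE, limma, adjusted p = 0.541).

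*Gps2*, which encodes a small subunit that binds NCoR and TBL1, had the lowest promoter among the 7 fitted and the largest difference in scaled height. The region (chr11:69913756-69914368) had its median summit in an exon of *Gps2*. It had scaled heights of 18.5, 16.8, 20.5 and 23.5 in Brg1fl/+ replicates 1 to 4 and of 28.0, 19.5, 24.0 and 31.8 in Brg1fl/fl replicates 1 to 4. The 3 highest Brg1fl/fl libraries lay above every Brg1fl/+ library and the fourth within their range, with means of 19.8 ± 2.85 and 25.8 ± 5.30 (SD, n = 4 each). The fold was 1.29 with a 95% interval of 0.973 to 1.71 (log2 difference 0.37 ± 0.20, SE, limma, adjusted p = 0.247, and two-sided exact permutation test with 70 assignments, p = 0.114, where 0.0286 is the smallest possible). On the scale of the deposited fold over local background the difference was -0.075, where the median of all regions was -0.17.

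*Hdac3*, the catalytic subunit of the NCoR complex, had a lower mean height in Brg1fl/fl, a difference that did not pass the threshold. Its promoter on chromosome 18 is shared with *Rell2* on the other strand. The scaled heights were 29.4, 28.1, 46.1 and 29.1 in Brg1fl/+ replicates 1 to 4, and 26.3, 24.8, 29.5 and 24.6 in Brg1fl/fl replicates 1 to 4. Brg1fl/+ replicate 3 stood apart from the other Brg1fl/+ libraries, and 1 Brg1fl/fl library lay above these. The fold of Brg1fl/fl over Brg1fl/+ was 0.809 with a 95% interval of 0.628 to 1.04 (log2 difference -0.31 ± 0.18, SE, limma, adjusted p = 0.289, and exact permutation test, p = 0.114). Without Brg1fl/+ replicate 3 the log2 difference was -0.13 (limma, adjusted p = 0.706). With the deposited fold over local background it was -0.54 ± 0.16 over all libraries (SE, limma, adjusted p = 0.0573), where the median of all regions was -0.17. These folds over background were 11.1 to 13.7 in Brg1fl/+ and 7.93 to 10.3 in Brg1fl/fl. On this scale 155 of all regions were called, 149 of them lower in Brg1fl/fl. The share of all regions whose genotypes do not overlap on it was not counted.

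*Sin3a*, the scaffold of the SIN3 complex, had the highest promoter of the 9 genes, at percentile 96.0 of promoter regions with a peak in all lists. The promoter region (chr9:57075812-57077197) surrounds an internal start at position 57076376 rather than the 5′ end of the gene at position 57072040, and lies in the window of 2700012I20Rik on the opposite strand. Its scaled heights were 75.7, 74.6, 111 and 78.3 in Brg1fl/+ replicates 1 to 4 and 102, 95.7, 88.5 and 97.3 in Brg1fl/fl replicates 1 to 4. All Brg1fl/fl libraries lay above the other 3 Brg1fl/+ libraries and below Brg1fl/+ replicate 3. The means were 84.9 ± 17.4 and 95.9 ± 5.59 (SD, n = 4 each), and the log2 difference was 0.19 ± 0.12 (SE, limma, adjusted p = 0.316), or 0.33 without Brg1fl/+ replicate 3 (adjusted p = 0.0563).

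The local background at *Sin3a* was high, at 7.43 to 23.7 fragments, so that its fold over that background was only 5.95 to 7.83 and its median rank by q was 17.3%, behind *Hdac2* at 16.6% and *Rcor1* at 7.19%. The region also differed in shape. In Brg1fl/+ replicates 2, 3 and 4 the list held 2 separate peaks, 1 upstream with its summit between -249 and -153 bp from the start and 1 downstream with its summit between 515 and 701 bp. A single peak of 1248 to 1381 bp spanned both in Brg1fl/+ replicate 1 and in the 4 Brg1fl/fl libraries. In Brg1fl/fl replicate 2 the highest summit was the downstream one, 530 bp after the start. The shortest peak of the list was longer in every Brg1fl/fl than in every Brg1fl/+ library, and its part in the shape of the region was not tested. How many other promoter regions were split in the same lists was not counted.

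**Figure D2:**
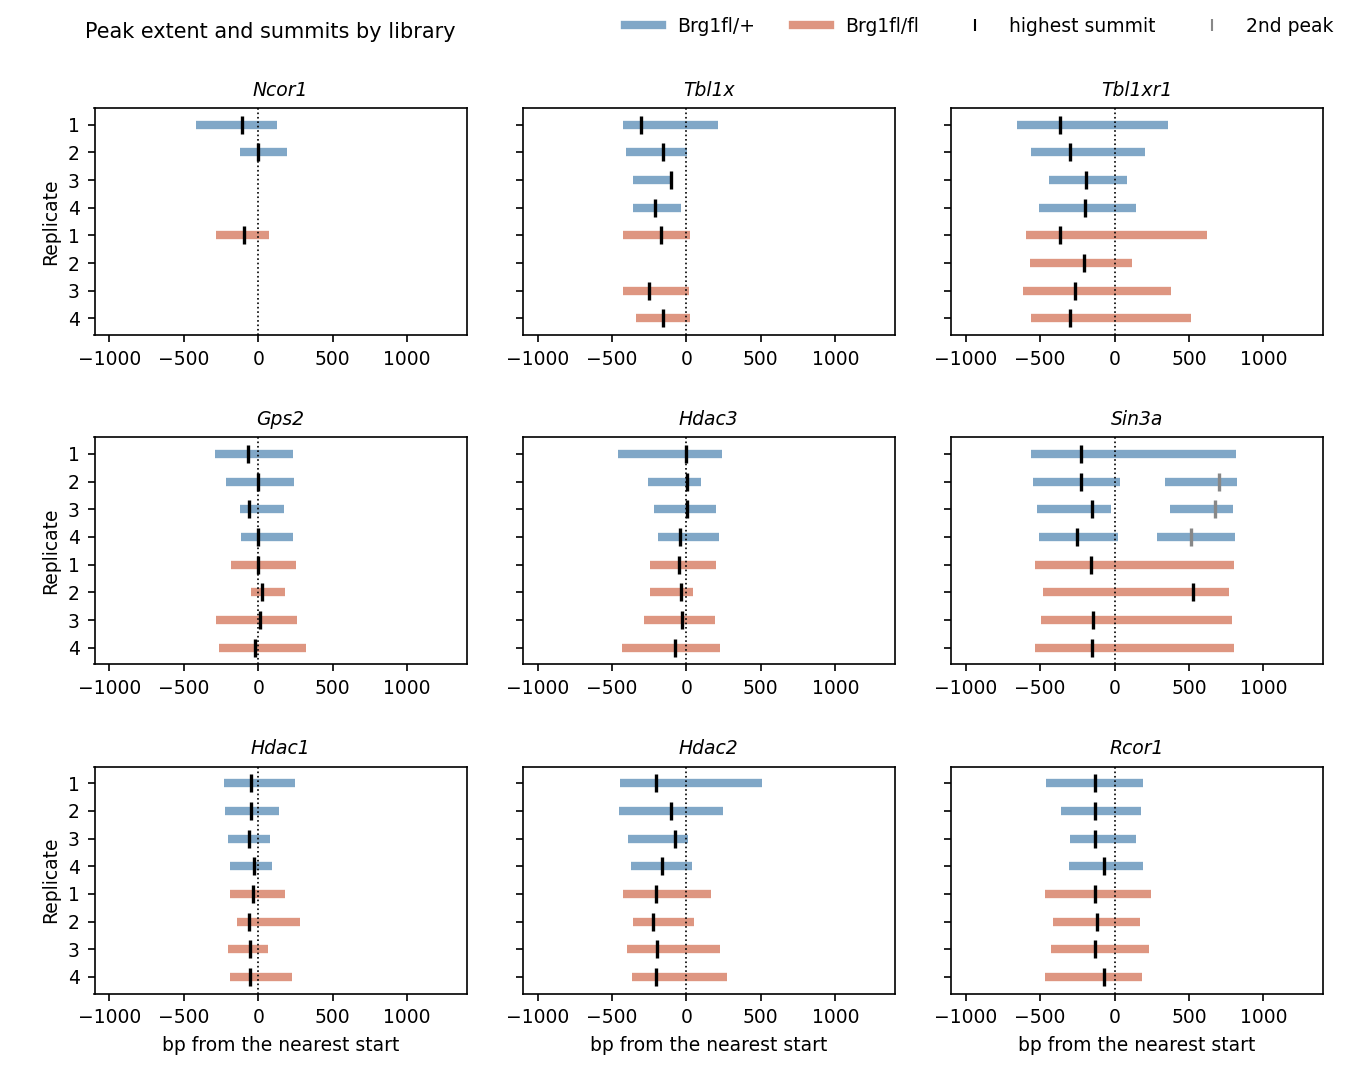
Extent of the peaks (bars) and their summits (ticks) at the main promoter region of each of the 9 genes, in bp from the nearest annotated start, in the direction of transcription (dotted line, 0). Libraries run from Brg1fl/+ replicates 1 to 4 (blue) down to Brg1fl/fl replicates 1 to 4 (orange). *Sin3a* is split into 2 peaks in 3 Brg1fl/+ libraries (the summit of the second in grey), and the summits of *Gps2*, *Hdac3* and *Hdac1* lie between -74 and 23 bp in every library.

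*Hdac1* and *Hdac2* encode the paired deacetylases of the SIN3 and CoREST complexes. The main *Hdac1* promoter (chr4:129542433-129542943) had scaled heights of 31.9, 34.5, 35.8 and 36.9 in Brg1fl/+ replicates 1 to 4 and 28.0, 30.1, 37.8 and 38.2 in Brg1fl/fl replicates 1 to 4. The Brg1fl/fl libraries lay on both sides of the Brg1fl/+ libraries, and the log2 difference of -0.065 ± 0.16 (SE, limma, adjusted p = 0.840) changed sign without Brg1fl/fl replicate 1 (0.020). Its 511 bp made it one of the narrowest promoters (percentile 6.51), and its summits lay between -63 and -32 bp from the start. A second *Hdac1* region, chr4:129525425-129525801, reached the window of an internal start. It had a peak of 10 fragments in Brg1fl/+ replicate 1 alone, as 13.9% of all promoter regions had a peak in a single list.

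The *Hdac2* promoter (chr10:36974091-36975051) had scaled heights of 52.5, 32.9, 51.2 and 49.2 in Brg1fl/+ replicates 1 to 4, and 53.5, 53.2, 55.3 and 46.4 in Brg1fl/fl replicates 1 to 4. Brg1fl/+ replicate 2 was low, and the other 3 Brg1fl/+ libraries overlapped the Brg1fl/fl libraries. The log2 difference was 0.19 ± 0.14 (SE, limma, adjusted p = 0.442), and without Brg1fl/+ replicate 2 it was 0.028 (adjusted p = 0.937).

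*Rcor1*, the scaffold of the CoREST complex, had the best ranked promoter of the 9 genes and the second highest (percentile 87.0). The region (chr12:111038885-111039598) had scaled heights of 56.6, 64.2, 64.8 and 68.2 in Brg1fl/+ replicates 1 to 4 and 64.2, 76.2, 73.8 and 75.5 in Brg1fl/fl replicates 1 to 4. The 3 highest Brg1fl/fl libraries lay above all Brg1fl/+ libraries. The means were 63.5 ± 4.87 and 72.4 ± 5.58 (SD, n = 4 each), a fold of 1.14 with a 95% interval of 0.967 to 1.35 (limma, adjusted p = 0.316, and exact permutation test, p = 0.0857).

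**Figure D3:**
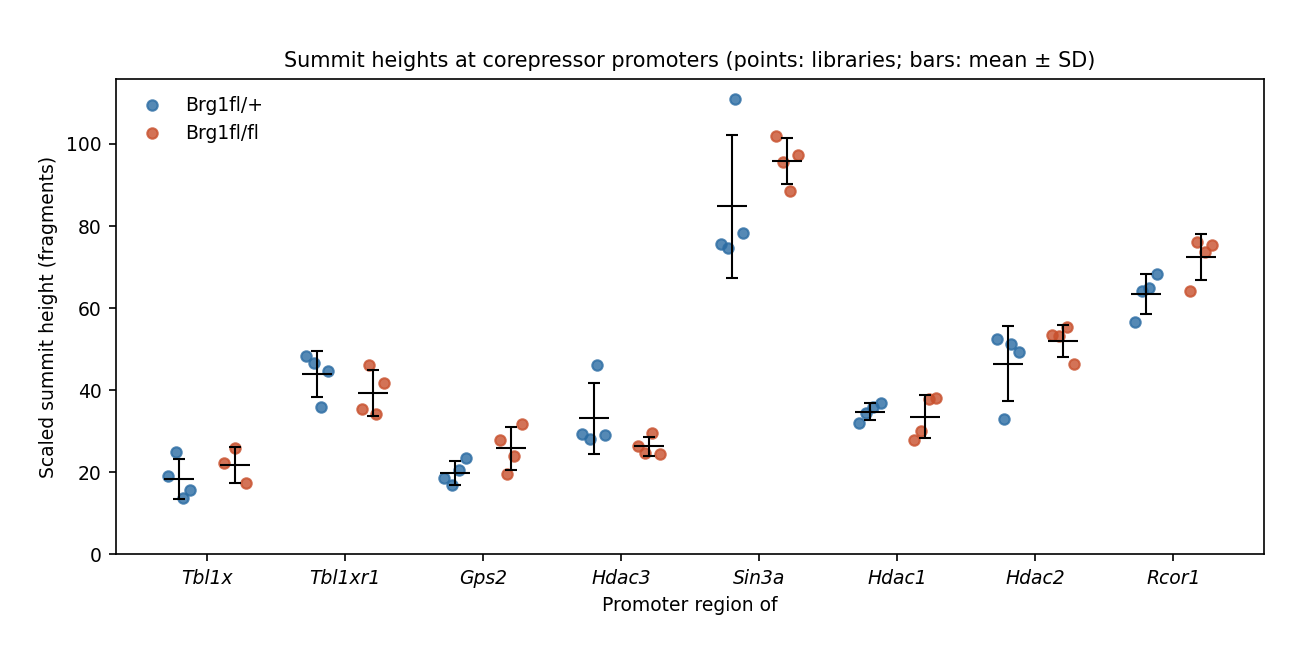
Scaled summit height, in fragments, of the promoter regions of 8 corepressor genes with a peak in at least 7 lists. Points are libraries and bars the mean ± SD over the libraries with a peak, blue for Brg1fl/+ and orange for Brg1fl/fl. The genotypes overlap at each gene, from *Tbl1x* and *Gps2* of at most 31.8 to *Sin3a* between 74.6 and 111.

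At none of the 7 promoter regions with a peak in all lists did the height difference between the genotypes pass the threshold (limma, Benjamini-Hochberg over 4574 regions, adjusted p from 0.247 upward), where 9.2% of all promoter regions and 11.6% of all fitted regions passed. None of the 7 had an unadjusted p under 0.05, against 23.4% of promoter regions, and none had heights that did not overlap, against 13.8% of promoter regions. 4 were higher and 3 lower in Brg1fl/fl, with a median log2 difference of 0.19 against 0.0055 over the 4238 promoter regions fitted. The intervals of the 7 folds ran from 0.628 (*Hdac3*) at the lowest to 1.71 (*Gps2*) at the highest. The other regions had narrower intervals, such as 0.967 to 1.35 at *Rcor1*, and changes within the interval of a region were not resolved there. The scaling by size factor sets the middle promoter to no change. When heights were divided by the genome background of each library instead, the median of all regions moved to -0.81 and all 7 regions fell below 0, 6 of them past the threshold, as did 91.4% of all regions. Relative to that median they ran from -0.32 (*Hdac3*) to 0.35 (*Gps2*), the same as before by construction, since 1 factor per library shifts every region alike.

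**Figure D4:**
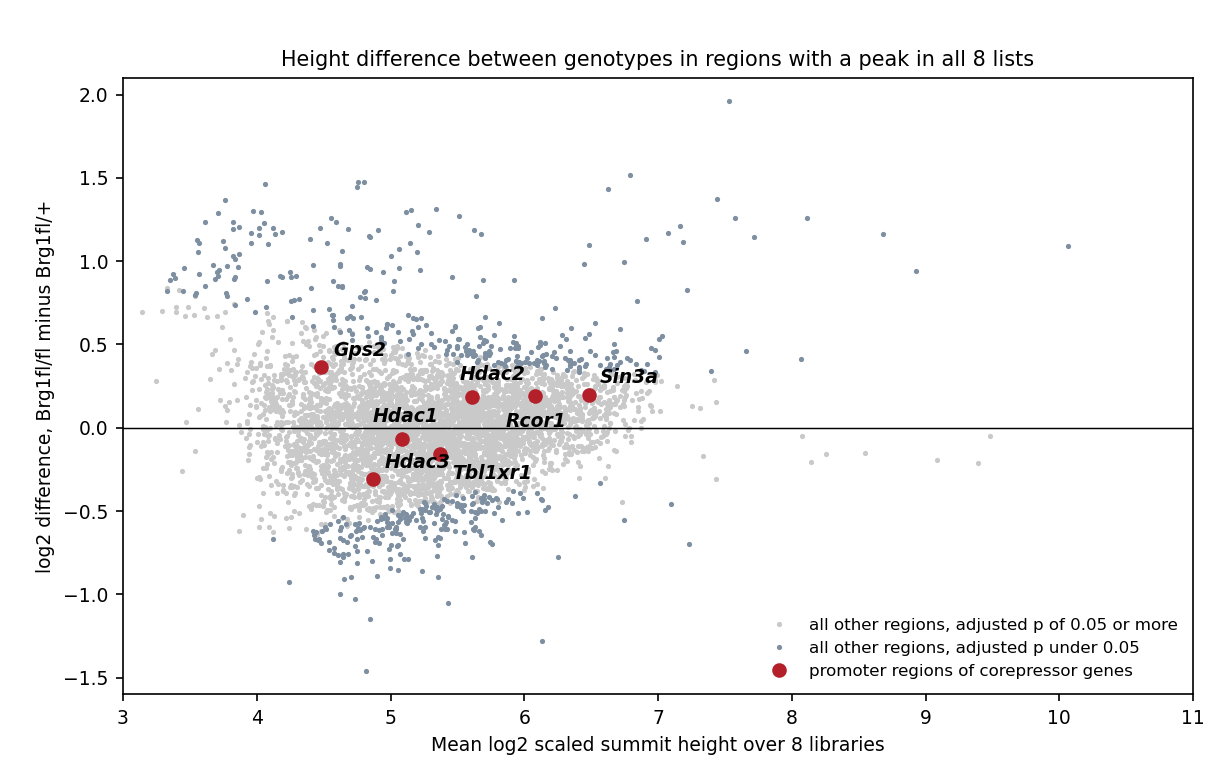
Log2 difference in scaled summit height (Brg1fl/fl minus Brg1fl/+) against the mean log2 scaled height over the 8 libraries, for the 4574 regions with a peak in all lists. Red points are the 7 corepressor promoters, between -0.31 (*Hdac3*) and 0.37 (*Gps2*), none of them past the threshold; blue-grey points are the other regions with an adjusted p under 0.05.

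The sequence around the promoter summits was examined for what else the promoters shared. Within 100 bp of the median summit, the 10 promoter regions had a median GC content of 68.4%, against 66.7% over 10324 promoter regions, and a median CpG observed over expected of 0.823 against 0.864. The internal *Hdac1* region stood apart from the main promoters, with a GC content of 54.2% and 1 CpG in the window (observed over expected 0.0686). Among the main promoters *Tbl1xr1* had the lowest CpG ratio (0.600) and *Gps2* the highest (1.07). GGGCGG lay in this window in 8 of the 10 regions (66.7% of all promoter regions), CCAAT in 4 (32.0%) and CCGGAAG in 2, *Ncor1* and *Gps2* (17.0%). TGTGGTT (RUNX) lay in 1, the internal *Hdac1* region (2.01%). The NRF1 motif, TGACGTCA (CRE), CACGTG (E-box), ATGGCGG (YY1), TTCCCGCC (E2F) and TGANTCA (AP-1) lay in none, against 11.3%, 3.45%, 8.72%, 7.87%, 3.48% and 2.48%. The *Hdac2* window held none of the 10. Promoter regions with starts on both strands made up 4 of the 10 (*Ncor1*, *Tbl1xr1*, *Hdac3* and *Sin3a*) and 22.2% of all promoter regions.

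Outside the promoters, 9 of the 10 other regions either lay at promoters of neighbouring genes or were seen in a single library. 4 of them lay at promoters of neighbouring genes (*Eif5a* near *Gps2*, *Diaph1* near *Hdac3*, *Marcksl1* near *Hdac1* and *Man2c1* near *Sin3a*), 1 lay in an intron of *Sin3a*, and the remaining 5 were each found in a single library. Of the 6 regions outside promoters, 5 had a peak in fewer Brg1fl/fl than Brg1fl/+ lists and 0 in more, against 63.3% with fewer among all regions outside promoters. Of the 4 at promoters of other genes, 1 had a peak in fewer (*Marcksl1*) and 1 in more (*Man2c1*), against 37.4% and 11.3% of all promoter regions. Of the 5 found once, 4 were in Brg1fl/+ replicate 1, in *Tbl1x*, in *Rcor1* and beside *Hdac3* and *Hdac1*, with 19 to 23 fragments each. Of all regions outside promoters, 52.5% were found in a single list. Brg1fl/+ replicate 1 held 68.9% of all regions found in 1 list, and without it 2 of all the other regions were found in a smaller share of Brg1fl/fl than of Brg1fl/+ lists. *Ncor1*, *Tbl1xr1* and *Hdac2* had no other region.

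A height could be fitted for 3 of the other regions, and none passed the threshold, where 42.3% of the fitted regions outside promoters did. 2 of the 3 lay at promoters. The intronic *Sin3a* region (chr9:57073055-57073760), whose summits lay 1430 to 1614 bp after the 5′ end of the gene, had a peak in all 8 lists. Its scaled heights were 50.0, 65.8, 54.6 and 59.3 in Brg1fl/+ replicates 1 to 4 and 64.2, 65.6, 56.2 and 60.9 in Brg1fl/fl replicates 1 to 4. These overlapped, and the log2 difference was 0.11 ± 0.12 (SE, limma, adjusted p = 0.629).

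The *Eif5a* promoter (a translation factor gene, chr11:69920999-69921847), which lies within 10 kb of *Gps2*, had scaled heights of 85.0, 79.4, 81.9 and 92.8 in Brg1fl/+ replicates 1 to 4 and 99.5, 90.4, 130.0 and 97.3 in Brg1fl/fl replicates 1 to 4. The Brg1fl/fl heights lay above all Brg1fl/+ heights except that 1 of them fell below the highest Brg1fl/+ library. The fold was 1.22 with a 95% interval of 1.04 to 1.44 (limma, unadjusted p = 0.0185, adjusted p = 0.102), and without Brg1fl/fl replicate 2 it passed the threshold (log2 difference 0.37, adjusted p = 0.0488), whereas without Brg1fl/fl replicate 3 the log2 difference was 0.18 (adjusted p = 0.393). The *Diaph1* promoter near *Hdac3* differed by 0.036 ± 0.12 on the log2 scale (SE, limma, adjusted p = 0.888). The *Marcksl1* promoter had a peak in 4 Brg1fl/+ and 3 Brg1fl/fl lists with a fold of 0.724 (95% interval 0.517 to 1.01), and *Man2c1* in 3 and 4 with a fold of 1.00 (0.720 to 1.39). Neither passed (limma with 1 missing library allowed, adjusted p = 0.211 and 0.998).

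Promoters of 29 further genes, which encode subunits of the same complexes or other histone deacetylases, were read in the same way. Of these, 28 had a promoter region (all but *Hdac8*), giving 31 regions, of which 18 had a peak in all 8 lists. A height difference passed in 1 of the 18, against 9.2% of all promoter regions. This was *Arid4b*, which encodes a SIN3-associated protein and shares its promoter with *Ggps1*. Its scaled heights were 57.7, 47.3, 59.7 and 49.2 in Brg1fl/+ replicates 1 to 4 and 69.1, 72.7, 65.5 and 74.6 in Brg1fl/fl replicates 1 to 4. All Brg1fl/fl libraries were above all Brg1fl/+ libraries. Heights that did not overlap were found at 13.8% of all promoter regions and at others of these 18, in both directions. The fold at *Arid4b* was 1.32 (log2 difference 0.40 ± 0.12, SE, limma, adjusted p = 0.0267). The call was lost without Brg1fl/+ replicate 2 or 4 or Brg1fl/fl replicate 1 or 4 (adjusted p = 0.102, 0.0689, 0.0571 and 0.0762) and with the deposited fold, with limma without trend and with libraries averaged in pairs. The median log2 difference of the 18 was -0.074, and 5 of them had an unadjusted p under 0.05, against 23.4% of promoter regions.

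By group, the SIN3 genes had 16 promoter regions, 11 of them in all lists, and the CoREST genes had 6, 4 of them in all lists. The remaining deacetylase genes had 8, of which 2 were in all lists. A peak was found in fewer Brg1fl/fl than Brg1fl/+ lists in 6 of the 8 deacetylase regions, 1 of the 16 SIN3 regions and 0 of the 6 CoREST regions, and in 7 of all 31, against 37.4% of all promoter regions. It was found in more in 0, 1 and 2 of these and in 3 of the 31, against 11.3%. Some of the deacetylase regions had a peak in Brg1fl/+ replicate 1 alone, the library with the largest size factor. Another lacked one only in Brg1fl/fl replicate 2, the library with the smallest. The part of depth in these counts was not tested. The difference between the groups was not tested. The number of lists differed by at least 2 at *Hdac10*, a class IIb deacetylase (3 Brg1fl/+ and 1 Brg1fl/fl lists), at *Hdac11* (2 and 0), at a second region of *Hdac5* (2 and 0) and, among the SIN3 genes, at *Sin3b* (4 and 1). *Sin3b*, the paralog of *Sin3a*, had 32, 28, 11 and 17 fragments in Brg1fl/+ replicates 1 to 4 and 16 in Brg1fl/fl replicate 4. These regions were low, with 8 to 32 fragments where detected, and lists without a peak do not give a height.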

How the data were processed

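ATAC-seq of 4 Brg1fl/+ and 4 Brg1fl/fl libraries was analysed, grouped by the sample labels. The authors used Bowtie2 for alignment to mm10 and MACS2 for peaks, called per library, so replicates were not pooled. The versions, the MACS2 options and the treatment of duplicates and of the transposase offset are not given in the sources used here. The deposited lists hold a fold over local background per peak (a ratio computed by the authors' caller), with its −log10 p and −log10 q as deposited. The authors' read coverage and its DESeq2 comparison, and 8 RNA-seq libraries, were not analysed here.

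Fragments at each summit and the local background were recovered from fold and p by solving both to within 0.002 of the deposited −log10 p, which gave a whole number for 99.9% of the peaks of each list. A narrower fragment setting lowers the pileup, and the size factor removes this only on average. Peaks that overlapped or touched in any of the 8 lists were merged, and a region was detected where a peak overlapped it by at least 1 bp. Heights were divided by size factors (median log ratio over 4183 promoter regions of chromosomes 1 to 19 with a peak in all lists) and compared on the log2 scale with limma (trend) over 4574 regions, with Benjamini-Hochberg adjustment and a threshold of 0.05, and for single values with exact permutation tests (two-sided, 70 assignments). The library number and the depth limit the precision. Heights are counts of fragments, and the intervals cover the spread between libraries.

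All 9 genes were named with every promoter region. Other regions were named where at least 4 libraries had a peak, where the numbers differed by at least 2 between genotypes or where limma called them, and the further genes by the last 2 rules. Single values of 1 further gene and 1 marker are not reported here. The members and lists were chosen with earlier results of these data known. As alternatives, the −log10 q had to reach 5 or 10, or the results were recomputed with lists of 6271 peaks, peaks within 500 bp joined, other promoter rules, 50% of the region covered, other scalings, 3 libraries per genotype, limma without trend, the replicate number as a block, averages of libraries 1 and 2 and of 3 and 4, and each library left out in turn. Averaging the Brg1fl/+ libraries alone was added after the data were seen. Sequences are from RefSeq (GRCm38.p6), whose chromosomes contain every peak, and 2 promoter regions outside chromosomes 1 to 19, X and Y were left out of the motif counts. The steps were tested on simulated data. Python 3.11.15 (scipy 1.17.1, numpy 2.4.6, pandas 2.3.3, matplotlib 3.10.9, pysam 0.24.0) and R 4.3.3 with limma 3.58.1 were used.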

Additional observations from a re-analysis of the deposited data

Results flagged for a closer look

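Among 22 groups of 4 libraries examined for a single library far from the rest, which chance alone flags in about 1 group in 20, 3 stood out, all in Brg1fl/+. At the *Hdac3* promoter, Brg1fl/+ replicate 3 had a scaled height of 46.1, where the other 3 Brg1fl/+ libraries had 28.1 to 29.4. At the *Sin3a* promoter the same library had 111, where the others had 74.6 to 78.3. At the *Hdac2* promoter, Brg1fl/+ replicate 2 had 32.9, where the others had 49.2 to 52.5. Brg1fl/+ replicate 3 had the second smallest size factor of the 8 libraries (0.586), so its heights rest on 27 fragments at *Hdac3* and 65 at *Sin3a*. Without the library concerned the log2 difference between the genotypes was -0.13 in place of -0.31 at *Hdac3* (limma, adjusted p = 0.706), 0.33 in place of 0.19 at *Sin3a* (adjusted p = 0.0563) and 0.028 in place of 0.19 at *Hdac2* (adjusted p = 0.937).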

How the results depend on the processing

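Over 239 values of 11 regions under 22 alternatives, 211 kept their direction and side of the threshold, 16 reversed, 8 lost a call and 10 gained one, 6 of these in the reversed direction. Dividing by the genome background called 6 of the 7 member promoters, 3 other member regions and 18 of 18 regions of the further genes, and reversed *Gps2* (-0.46), *Sin3a* (-0.63), *Hdac2* (-0.64), *Rcor1* (-0.63), *Eif5a* (-0.54), *Diaph1* (-0.79), the intronic *Sin3a* region (-0.71) and *Arid4b* (-0.42). The deposited fold, which moved the median of all regions to -0.17 and called 155 regions against 532 (6 higher and 149 lower, against 317 and 215), reversed *Gps2* (-0.075), *Hdac2* (-0.062), *Rcor1* (-0.015), *Diaph1* (-0.086) and the intronic *Sin3a* region (-0.075). By construction both keep the difference in signal over background between genotypes. *Diaph1* also reversed without Brg1fl/+ replicate 1 (-0.069) or Brg1fl/fl replicate 1 (-0.041), with a range of -0.069 to 0.099 over the libraries left out, and *Hdac1* without Brg1fl/fl replicate 1 (range -0.13 to 0.020).

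Requiring 50% of a region to be covered left 3 promoter regions in all lists. With a −log10 q of at least 5 or 10, or lists of equal length, 0 promoter regions were in fewer Brg1fl/fl lists, and with equal lists 1 other region was (6 as deposited). Leaving out single libraries gave 2 to 6 such other regions, 0 to 1 calls among other regions (1 without Brg1fl/fl replicate 2) and 0 to 2 calls among the further genes. *Arid4b* lost its call, leaving 0, with the deposited fold, limma without trend and either average of pairs (adjusted p of 0.450, 0.0701, 0.0599 and 0.0818). The cause was not tested. The averages called 349 and, for Brg1fl/+ alone, 231 regions.

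Same-numbered libraries did not deviate together (correlations of -0.061 to -0.0064), and differently numbered ones had correlations of -0.052 to 0.063. Because the spread within a genotype was near sampling noise, these correlations cannot decide whether the numbers pair the samples. With the replicate block 492 regions were called, 0 of them member promoters or other member regions and 1 of the further genes (*Arid4b*, adjusted p = 0.0384). A list without a peak gives no height, and the part of depth in the missing peaks was not tested.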
